A study of Mus musculus with 12 samples.

Results

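The Zfp-named zinc finger genes are the mouse genes whose symbol is Zfp followed by a number. They were taken from tables of 14264 genes by that name pattern and by a mean normalized read count of at least 50, leaving out Zfp36, whose protein has a zinc finger of another kind that binds RNA. Of 299 genes with such a name, 251 met the minimum and 48 did not. Those nearest the minimum were Zfp963 and Zfp105 on the inside, with means of 51.3 and 53.3 in the authors' deposited table, and Zfp248 and Zfp72 on the outside, with means of 45.7 and 45.0. Their log2 fold changes after LPS were -0.50, -0.56, -0.70 and -1.53, in that order, in the authors' deposited table.

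The cells were mouse bone marrow-derived macrophages, grown from marrow ex vivo, and RNA was sequenced from 12 libraries in 4 groups of 3. Controls carried a control short hairpin (shCTRL, genotype given as WT) and knockdown cells carried a hairpin against MOF (shMOF). Each kind was left unstimulated or given 100 ng/ml lipopolysaccharide (LPS), a bacterial cell wall component that activates macrophages, for 3 h. The labels name no second hairpin and no rescue, and give no strain, age or sex. Nothing in the labels says that the 3 libraries of a group came from separate animals or cultures, so the p-values measure the spread between these libraries, which may be technical.

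Most Zfp-named proteins carry a row of C2H2 fingers, small loops folded around a zinc ion that each contact a few bases of DNA. Many also carry a KRAB box near the amino end, which recruits the co-repressor Trim28 and through it the histone methyltransferase Setdb1, a route best known for silencing endogenous retroviruses. KRAB zinc finger genes arose by repeated duplication, and many lie in tandem clusters. MOF, which the gene Kat8 encodes, is a histone acetyltransferase whose main histone target is H4, and histone acetylation is a mark of active chromatin.

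The data are the authors' own comparisons of shMOF with shCTRL, 1 table per state. They hold no value for a single library, so each gene is described by its log2 fold change, the standard error (SE) of that change and an adjusted p from DESeq2. A gene is said to have risen or fallen where its adjusted p was below 0.05. In RNA from a whole culture, fewer cells of a type and less RNA per cell cannot be told apart. Kat8 itself stood at a log2 fold change of -2.25 (SE 0.10) unstimulated and -2.31 (SE 0.13) after LPS in the authors' deposited table. All 8 macrophage markers rose in unstimulated shMOF cells, and 6 of 8 rose after LPS. All 10 genes of a proliferation list fell without LPS, with a median of -2.22 in the authors' deposited table. After LPS 9 of the 10 fell, while Mki67 rose. Of 5 B cell markers 1 was listed, Cd79b, which rose in both states, and 3 of 5 stromal markers rose in both. Of 4 progenitor markers, Kit, Cd34 and Ly6a fell without LPS, at -1.81, -0.93 and -0.70 in the authors' deposited table, and Cd34 and Ly6a fell after it. The other progenitor marker, Gata2, passed in neither state. In the authors' deposited table its mean was 6.10, and its log2 fold change without LPS was 2.58 with an SE of 1.38. Of 5 dendritic cell markers 1 was listed, Zbtb46, which in the authors' deposited table rose by 0.70 after LPS and not without it. The part of these shifts in the results on zinc finger genes was not tested.

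The sequences printed next were chosen because they mark a cluster of 16 KRAB genes on chromosome 13, of which 12 fell without LPS. RefSeq promoter windows of build GRCm38.p6, from 250 bases before to 50 after a start site, were matched for 209 of the 251 genes. Of the 16 genes in the cluster, 14 had a window, and all 14 held the letters ACTACA, then NN (any 2 bases), then TCCC, searched on both strands. They resemble the core of the site bound by the factor ZNF143, called Zfp143 in mouse. Each line gives 36 bases on the strand that holds the motif, 5′ to 3′, with the motif in capitals. The first 7 belong to genes of the cluster that fell in at least 1 state, the next 3 to genes of the cluster that fell in neither, and the last 2 to Zfp genes on chromosome 7, of which Zfp60 fell in both states and Zfp260 rose after LPS.
Zfp712 (chr13:67061203-67061238, plus strand): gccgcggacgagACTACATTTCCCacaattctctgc
Zfp759 (chr13:67128164-67128199, minus strand): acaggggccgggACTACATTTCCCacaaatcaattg
Zfp458 (chr13:67269149-67269184, plus strand): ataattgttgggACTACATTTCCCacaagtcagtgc
Zfp595 (chr13:67332588-67332623, plus strand): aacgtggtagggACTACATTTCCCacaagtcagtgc
Zfp748 (chr13:67553155-67553190, plus strand): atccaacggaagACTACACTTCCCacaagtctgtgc
Zfp738 (chr13:67683545-67683580, plus strand): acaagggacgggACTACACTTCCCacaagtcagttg
Zfp273 (chr13:67813737-67813772, minus strand): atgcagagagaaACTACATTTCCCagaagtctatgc
Zfp455 (chr13:67194438-67194473, minus strand): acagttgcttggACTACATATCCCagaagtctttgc
Zfp456 (chr13:67375809-67375844, plus strand): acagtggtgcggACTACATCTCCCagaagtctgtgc
Zfp429 (chr13:67399815-67399850, plus strand): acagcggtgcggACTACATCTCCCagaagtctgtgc
Zfp60 (chr7:27731332-27731367, plus strand): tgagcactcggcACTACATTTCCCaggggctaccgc
Zfp260 (chr7:30095035-30095070, minus strand): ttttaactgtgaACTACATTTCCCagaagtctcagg
In all 14 windows of the cluster the motif lay on the strand opposite to the gene, between 178 and 5 bases before the start site. The next 4 bases were acaa in 9 of the 14 and agaa in the other 5. Neither run went only with genes that fell without LPS. Zfp953, not printed, has acaa and did not pass there, and Zfp273 and Zfp85 have agaa and fell. Of 25 sites in 24 Zfp genes elsewhere, 8 went on with one of those 4-base runs and 17 did not.

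Counted over both strands, the motif was in the windows of 38 of 209 Zfp genes (18.2%), of 5.27% of 8259 genes of the tables with a mean of at least 50, and of 2.08% of all 27025 genes with a window. Of 13 motifs searched it is the one described here, and its last bases can also begin another of them, CCAAT. Away from the cluster on chromosome 13 it was in 24 of 195 Zfp genes (12.3%). The share was 14.3% among the 42 such genes that fell without LPS and 9.88% among the 81 that fell after LPS, against 12.3% over all of them. Zfp456 and Zfp429, printed above, carry it and fell in neither state, though 7.87% and 6.44% of their 100-base stretches occur in another gene. Zfp455, with 2.07%, carries it too and fell in neither. A match of letters is a description of the window and not a measured site. Zfp143 itself had log2 fold changes of -0.06 (SE 0.08, adjusted p 0.600) and 0.12 (SE 0.07, adjusted p 0.139) per the authors' deposited table.

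**Figure D1:**
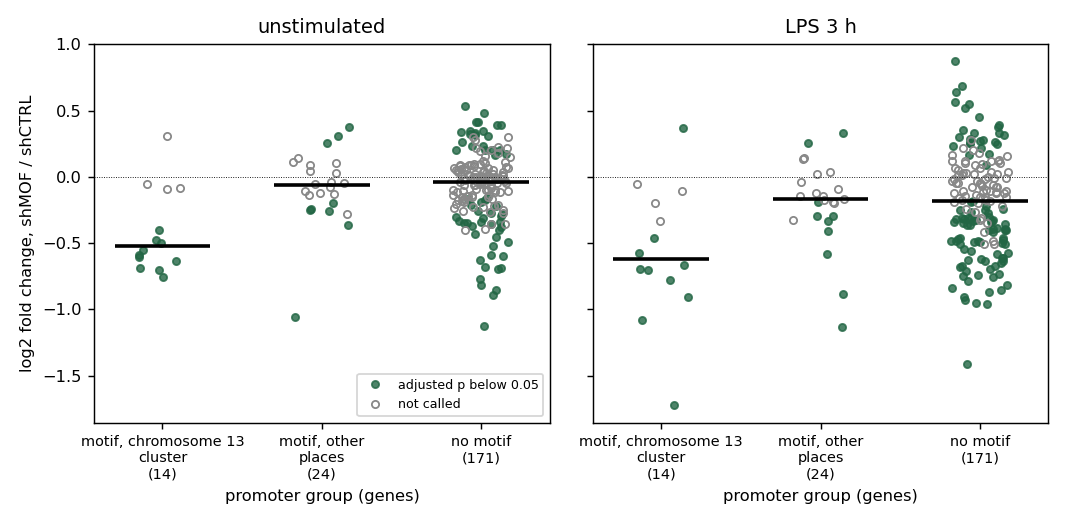
Each point is the log2 fold change (shMOF over shCTRL) of 1 Zfp gene with a promoter window, unstimulated on the left and after 3 h of LPS on the right, split by whether the window holds the motif and whether the gene lies in the chromosome 13 cluster. Filled points have an adjusted p below 0.05 and thick lines are medians: the 14 motif genes of that cluster have medians of -0.52 and -0.62, the 24 motif genes elsewhere -0.06 and -0.17, and the 171 genes without the motif -0.04 and -0.18.

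In unstimulated cells 32 of the 251 Zfp genes rose and 63 fell on MOF knockdown, and their median log2 fold change was -0.05 in the authors' deposited table. Across all 14264 genes tested, 21.3% rose and 17.8% fell, 39.1% in all. Among the genes with a mean of at least 50, 26.5% rose and 21.9% fell, with a median of 0.03. The Zfp genes thus had 12.7% rising and 25.1% falling, 37.8% in all. After LPS 36 rose and 107 fell, with a median of -0.19 in the authors' deposited table. The background there was 28.1% rising and 20.0% falling of 13987 genes tested, 48.0% in all, and 33.8% and 24.1% among genes with a mean of at least 50. The Zfp genes had 14.3% rising and 42.6% falling, 57.0% in all. The LPS average weighted by the inverse squared SE was -0.057, and against a null of 0.25 there were 2 rising and 20 falling without LPS and 10 rising and 40 falling after it. Fold changes centred on the median gene gave 23 rising and 74 falling without LPS, and 33 and 115 after LPS.

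Leaving out the 16 genes of the chromosome 13 cluster, a choice made after seeing the data, 51 of 235 fell without LPS (21.7%). That is about the 21.9% of genes of like minimum level, while 32 rose (13.6%, against 26.5%). After LPS 96 of the 235 fell (40.9%, against 24.1%) and 35 rose (14.9%, against 33.8%). The share falling thus stood near the background without LPS and above it after LPS once that cluster was left out. The share rising stood below that background in both states, but among other genes this share goes up with the count level. Without LPS 13.8% of other genes rose at means of 50 to 100 and 33.6% at 800 and above. Over all 251 Zfp genes the shares in those bands were 2.22% and 21.6%. After LPS other genes had 16.6% and 46.5%, and Zfp genes 2.22% and 43.2%. Between 400 and 800 without LPS, 22.8% of other genes and 23.1% of Zfp genes rose. These differences were not tested.

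Both states together placed 44 Zfp genes as falling in both, 15 as rising in both and 82 as passing in neither. A further 57 passed as falling and 17 as rising after LPS alone, and 15 as falling and 11 as rising unstimulated alone. Crossing from one direction to the other were 10 genes, of which 4 fell without LPS and rose after it and 6 did the reverse. Across the 251 genes the log2 fold changes of the states had a Pearson r of 0.559 and a Spearman rho of 0.487, against 0.569 and 0.475 over all genes with a mean of at least 50. The comparisons use separate libraries but 1 set of deposited means, and genes are not independent replicates.

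**Figure D2:**
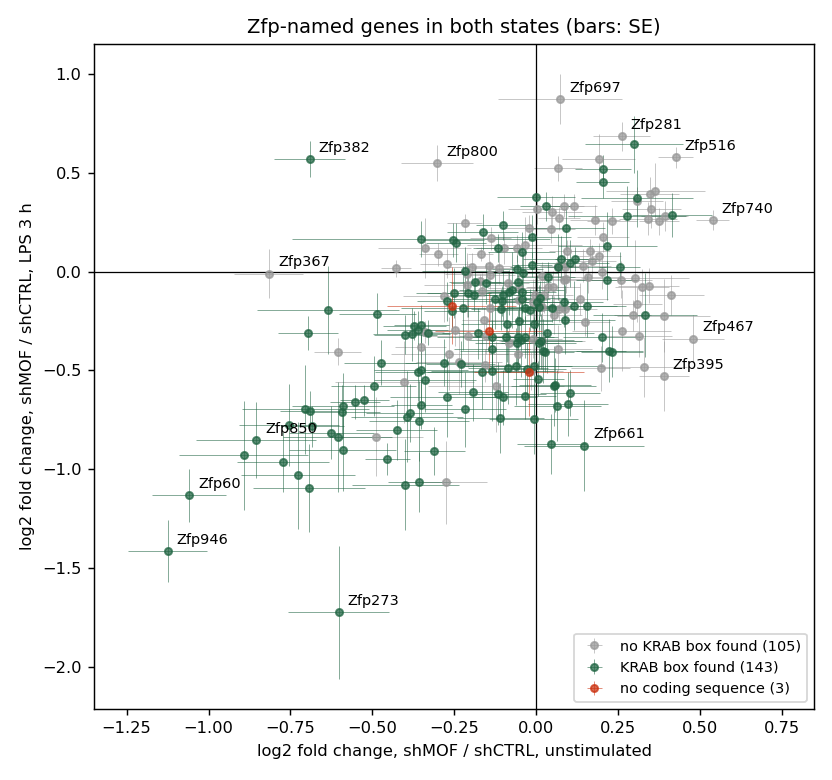
Each point is 1 Zfp gene, with its log2 fold change (shMOF over shCTRL) unstimulated on the horizontal axis and after 3 h of LPS on the vertical axis, bars of 1 SE, and colours for genes with a KRAB box (143), without one (105) and with no coding sequence used (3). Zfp946 and Zfp60 lie at the lower left, and Zfp382 stands alone at the upper left, at -0.69 and 0.57.

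Of the 10 genes that fell furthest without LPS, 9 carry a KRAB box, as do 143 of the 248 with a coding sequence. The ranking is by size of the change, and the median SE without LPS was 0.117 for KRAB genes and 0.083 for the others. Zfp946, on chromosome 17 at 22424222 to 22456689 of mm10, stood at -1.13 on the log2 scale (SE 0.12, adjusted p 5.4e-19) per the authors' deposited table, 0.458 of the control level, and after LPS -1.41 (SE 0.16, adjusted p 2.73e-18). Zfp60, on chromosome 7 at 27731389 to 27753702, had -1.06 (SE 0.11, adjusted p 1.97e-19) and -1.13 (SE 0.13, adjusted p 4.7e-16) per the authors' deposited table. Zfp60 thus stood at 0.480 and 0.456 of control. Further falls without LPS were Zfp667 at -0.89 (SE 0.20), Zfp850 at -0.85 (SE 0.18), Zfp59 at -0.77 (SE 0.14), Zfp759 at -0.75 (SE 0.15), Zfp493 at -0.73 (SE 0.17), Zfp58 at -0.70 (SE 0.19) and Zfp952 at -0.70 (SE 0.09) per the authors' deposited table. Zfp58 and Zfp59 are less certain, because 49.1% and 28.5% of their 100-base stretches, the read length, also occur in another gene. Zfp367 is a different kind of protein, with no KRAB box found and 1 match of the C2H2 finger pattern used, which can miss fingers. It had -0.82 (SE 0.11, adjusted p 1.78e-13) without LPS and -0.01 (SE 0.12) after it in the authors' deposited table.

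Of the 10 genes that rose furthest without LPS, 9 carry no KRAB box, as do 105 of the 248 with a coding sequence, and the exception is Zfp658. Zfp740, on chromosome 15, had 0.54 (SE 0.05, adjusted p 5.28e-25) per the authors' deposited table and also rose after LPS, at 0.26 (SE 0.05). Zfp467, whose protein is known to sway the choice between fat and bone cell fate, had 0.48 (SE 0.10, adjusted p 4.07e-06) unstimulated and the opposite sign after LPS, -0.34 (SE 0.12, adjusted p 0.00975) per the authors' deposited table. Zfp516, a driver of brown fat genes, had 0.43 (SE 0.05) unstimulated and 0.58 (SE 0.05, adjusted p 2.73e-27) after LPS in the authors' deposited table. Zfp658, Zfp821, Zfp277, Zfp395, Zfp784, Zfp219 and Zfp438 followed, between 0.42 and 0.36 in the authors' deposited table. Among them Zfp784 shares 94.8% of its exon bases with Zfp865 on the opposite strand, and whether the counting used strand is not given in the sources used here.

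After LPS the largest rise was Zfp697, at 0.87 (SE 0.12, adjusted p 2.39e-11) per the authors' deposited table, against 0.07 (SE 0.19) without LPS. Zfp281, a factor for GC-rich promoters known from pluripotent cells, had 0.68 (SE 0.07, adjusted p 5.21e-19) per the authors' deposited table. Zfp931, Zfp608, Zfp382, Zfp800, Zfp609, Zfp160 and Zfp212 rose by 0.64 to 0.45 in the authors' deposited table. Zfp609 is a partner of the cohesin loader Nipbl, and stood at 0.52 (SE 0.06, adjusted p 2.89e-16) there. Zfp931 shares 11.3% of its 100-base stretches with another gene.

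The largest fall after LPS was Zfp273, in the chromosome 13 cluster, at -1.72 (SE 0.33, adjusted p 1.36e-06) per the authors' deposited table, where the median SE of the Zfp genes was 0.106, and 5.39% of its 100-base stretches occur in another gene. Zfp120, on chromosome 2, had -0.95 (SE 0.08, adjusted p 2.12e-29), a change of near the same size as its neighbours in this ranking but with a smaller error, in the authors' deposited table. Zfp7, Zfp85, Zfp41, Zfp40, Zfp493 and Zfp59 spanned -1.09 to -0.96 in the authors' deposited table. Of these Zfp59, Zfp7 and Zfp85 share 28.5%, 15.4% and 7.64% of their 100-base stretches with another gene. Among genes that share at most 5%, the largest fall after LPS was that of Zfp946, given above.

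By protein type the Zfp genes divided. A KRAB box was found by a sequence profile in 143 of the 248 with a coding sequence, and not in 105. Among the KRAB genes 5 rose and 46 fell without LPS (3.50% and 32.2%), with a median of -0.10. After LPS 9 rose and 78 fell (6.29% and 54.5%), with a median of -0.32 in the authors' deposited table. Among those with none, 27 rose and 17 fell without LPS (25.7% and 16.2%), with a median of 0.04. After LPS 27 rose and 29 fell (25.7% and 27.6%), with a median of -0.04. Of all genes with a mean of at least 50, 26.5% rose and 21.9% fell without LPS, and 33.8% and 24.1% after it. KRAB genes also had lower counts, with a median mean normalized count of 189 against 584. Within a band of counts from 200 to 400, 54.3% of 46 KRAB genes and 33.3% of 21 others fell after LPS. In the band from 50 to 100 the shares were 63.6% of 33 and 33.3% of 9. Between 400 and 800 they were 40.0% of 20 and 34.4% of 32. The KRAB genes include all 16 of the chromosome 13 cluster, of which 12 fell without LPS and 11 after it. The split was not made without that cluster. No test was made of the difference between these groups.

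The number of matches to a C2H2 finger pattern ran the same way. Of 47 Zfp genes with 4 pattern matches or fewer, 15 rose and 6 fell without LPS (31.9% and 12.8%). Their median was 0.12 in the authors' deposited table. Of 54 with 15 or more, 3 rose and 21 fell (5.56% and 38.9%), with a median of -0.13. Of all genes with a mean of at least 50, 26.5% rose and 21.9% fell there. After LPS the median was near 0 in the first set and -0.33 in the second. KRAB proteins tend to have many fingers, so these splits share members.

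The count level went with the direction after LPS. Of 45 Zfp genes with a mean between 50 and 100, 53.3% fell after LPS, against 21.2% of other genes in the same band. Without LPS the shares in that band were 26.7% and 17.1%. At means of 800 and above, 13.5% of 37 Zfp genes fell, against 19.0% of other genes, and the median was 0.09 in the authors' deposited table. The correlation across genes between the log2 mean count and the log2 fold change was 0.477 after LPS for Zfp genes and 0.233 for other genes of the minimum, and unstimulated 0.228 and 0.130. A mean normalized count is not corrected for transcript length, so the bands sort genes by reads and not by molecules. The mean is also pooled over libraries, those of the knockdown included, so a fall itself lowers it. The part of this in the correlation was not tested. The deposited SE bounds the precision, with a median of 0.100 unstimulated and 0.106 after LPS.

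**Figure D3:**
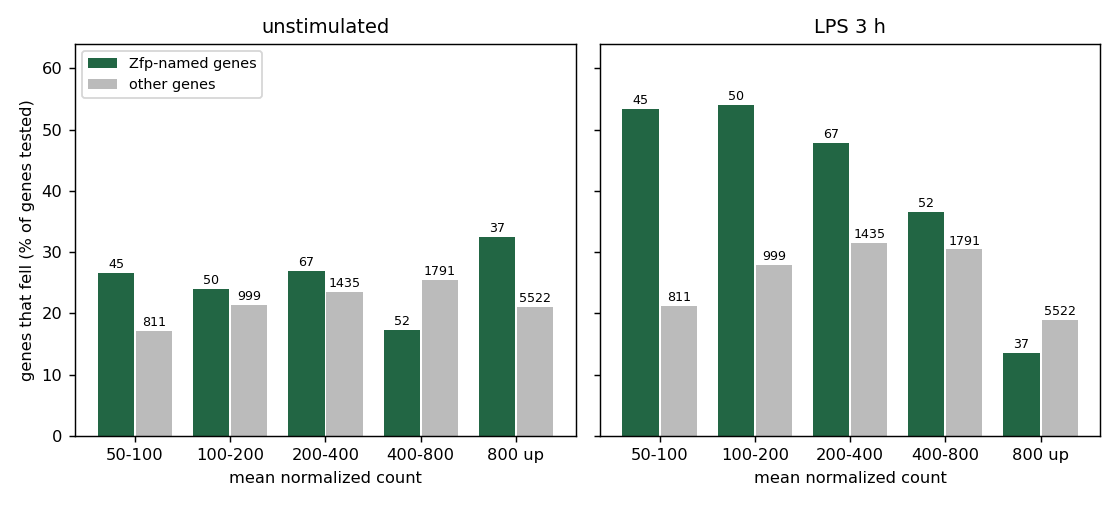
Bars, from 0, give the percent of genes that fell (adjusted p below 0.05) in 5 bands of mean normalized count for the Zfp genes and for all other genes, unstimulated on the left and after 3 h of LPS on the right, with the number of genes above each bar. After LPS the Zfp bars go from 53.3% and 54.0% in the lowest bands to 13.5% in the highest, and those of other genes lie between 19.0% and 31.6%.

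Other zinc finger families at the same minimum gave these counts, with no test between families. Genes with a mean of at least 50 rose in 26.5% and fell in 21.9% of cases without LPS, and in 33.8% and 24.1% after it. Of 35 Zbtb genes, whose proteins join a BTB domain to C2H2 fingers, 7 rose and 7 fell without LPS (20% each), and 12 rose and 4 fell after it (34.3% and 11.4%). Of 15 Zscan and Zkscan genes, which carry a SCAN domain, 4 rose and 1 fell, then 1 rose and 7 fell. Of 15 Zc3h genes, whose CCCH fingers bind RNA, 2 rose and 3 fell, then 5 rose and 1 fell. Of 19 Zfp genes named with letters, 2 rose and 7 fell, then 2 rose and 9 fell. Some of these lie inside clusters described below, so they are not a separate family. Zfp729b and Zfp874a lie in the chromosome 13 cluster and are counted again there, and Zfp955a lies in the second cluster on chromosome 17.

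In the genome 111 of the 251 Zfp genes lay in 13 clusters of at least 4, linked where neighbours were within 500 kb. In the clusters 11 rose and 37 fell without LPS (9.91% and 33.3%), and 8 rose and 58 fell after LPS (7.21% and 52.3%). The medians were -0.12 and -0.30 in the authors' deposited table. Among the 95 with no Zfp neighbour within 500 kb, 18 rose and 18 fell without LPS (18.9% each). After LPS 23 of them rose and 26 fell (24.2% and 27.4%), and the medians were 0.02 and -0.07. Of all genes with a mean of at least 50, 26.5% rose and 21.9% fell without LPS, and 33.8% and 24.1% after it. The 111 include the 16 genes of the chromosome 13 cluster, of which 12 fell without LPS and 11 after it. The counts of single clusters below stand beside these shares.

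The cluster on chromosome 13, at 67038596 to 67827002 of mm10 from Zfp712 to Zfp273, held 16 genes, all with a KRAB box. Without LPS 12 fell (75%) and none rose, with 15 of 16 below 0 and a median of -0.52 in the authors' deposited table. After LPS 11 fell (68.8%) and 1 rose, with a median of -0.62. In order along the chromosome, Zfp712 and Zfp759 had -0.64 (SE 0.22) and -0.75 (SE 0.15) without LPS in the authors' deposited table. Zfp455 had -0.08 (SE 0.12), then Zfp458 -0.59 (SE 0.16) and Zfp595 -0.50 (SE 0.13) per the authors' deposited table. Next came Zfp953 at -0.09 (SE 0.12), Zfp456 at 0.31 (SE 0.17) and Zfp429 at -0.05 (SE 0.10), none of which passed. These are therefore the genes of the cluster that did not fall unstimulated, with Zfp455, and Zfp953, Zfp456 and Zfp429 stand next to each other. On their far side, Zfp58, Zfp87, Zfp748, Zfp738, Zfp65, Zfp85, Zfp493 and Zfp273 all fell, between -0.35 and -0.73 in the authors' deposited table.

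After LPS Zfp712 did not pass, at -0.19 (SE 0.22, adjusted p 0.497), and Zfp456 rose, at 0.37 (SE 0.14, adjusted p 0.0228) per the authors' deposited table. Of the 16 genes only Zfp273 passed the test of the difference between states, so neither Zfp712 nor Zfp456 was shown to change between them. Zfp738 and Zfp65 fell in both states, with -0.69 (SE 0.09) and -0.70 (SE 0.10) for Zfp738 and -0.55 (SE 0.08) and -0.66 (SE 0.09) for Zfp65, in the authors' deposited table. Neither passed the test of the difference between states (adjusted p 0.957 and 0.515). Copies in such a cluster can share reads: 10 of the 16 had at most 5% of their 100-base stretches in another gene, and of these 8 fell without LPS and 7 after. Of 6 genes inside the cluster with other names and a mean of at least 50, 4 fell without LPS and 6 after it. Zfp459, also inside but with a mean of 8.12, fell in neither state. The 6 include Zfp729a at -0.59 and Rsl1, a KRAB gene that regulates sex-limited liver proteins, at -0.30 without LPS in the authors' deposited table. Within 500 kb outside the cluster lay 3 other genes of the minimum, of which 1 fell without LPS, and 1 rose and 1 fell after it.

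A longer cluster on chromosome 17, at 21008903 to 23564238 from Zfp160 to Zfp213, held 18 KRAB genes. In this cluster 7 fell (38.9%) and 1 rose without LPS, and 11 fell (61.1%) and 2 rose after it. Its medians were -0.20 and -0.48 in the authors' deposited table, and its motif count was 0 of 16 windows. Zfp946 lies in it, beside Zfp945, which had -0.16 (SE 0.11) and 0.20 (SE 0.09) per the authors' deposited table and passed in neither state. At the ends of the cluster Zfp160 rose in both states and Zfp213 rose after LPS, at 0.52 (SE 0.07) and 0.38 (SE 0.10) after LPS in the authors' deposited table.

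The second cluster on chromosome 17, at 32765496 to 33631779 from Zfp871 to Zfp414, held 11 genes, 10 of them KRAB. In this cluster 4 of the 11 fell (36.4%) and 1 rose without LPS, and 8 fell (72.7%) after it. Its medians were -0.26 and -0.39 in the authors' deposited table. Of 34 other genes within 500 kb outside it, 19 rose and 2 fell without LPS, and 11 rose and 5 fell after it. Among all genes with a mean of at least 50 the shares were 26.5% and 21.9%, then 33.8% and 24.1%. Zfp811 in this cluster had an unstimulated SE of 0.39, the widest of the 251, with a change of -0.35 in the authors' deposited table.

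Chromosome 7 held 7 of the clusters, and they differed. From Zfp60 to Zfp850, at 27731389 to 28014115, 4 of 5 genes fell in both states, with medians of -0.77 and -0.85 in the authors' deposited table, and the exception was Zfp607 at -0.22 (SE 0.13) and 0.00 (SE 0.12). From Zfp84 to Zfp146, at 29768552 to 30169750, 4 of 10 fell without LPS, and 3 fell and 2 rose after it, the pair that rose being Zfp260 and Zfp382. There 7 of 9 windows held the motif. From Zfp628 to Zfp580, at 4915217 to 5053723, 3 of 6 rose without LPS, none has a KRAB box, and after LPS 1 rose and 1 fell.

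From Zfp553 to Zfp646, at 127233061 to 127885996, lie the Zfp genes beside Kat8, which starts at 127912516. Zfp646 and Zfp668 end 26.5 kb and 35.7 kb from it. Of the 10 genes 2 rose and none fell without LPS, and after LPS 7 fell and all 10 were below 0, with a median of -0.24 in the authors' deposited table. On chromosome 9, from Zfp560 to Zfp846 at 20345136 to 20605409, none of 5 KRAB genes passed without LPS and 4 fell after it, to a median of -0.54 in the authors' deposited table.

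**Figure D4:**
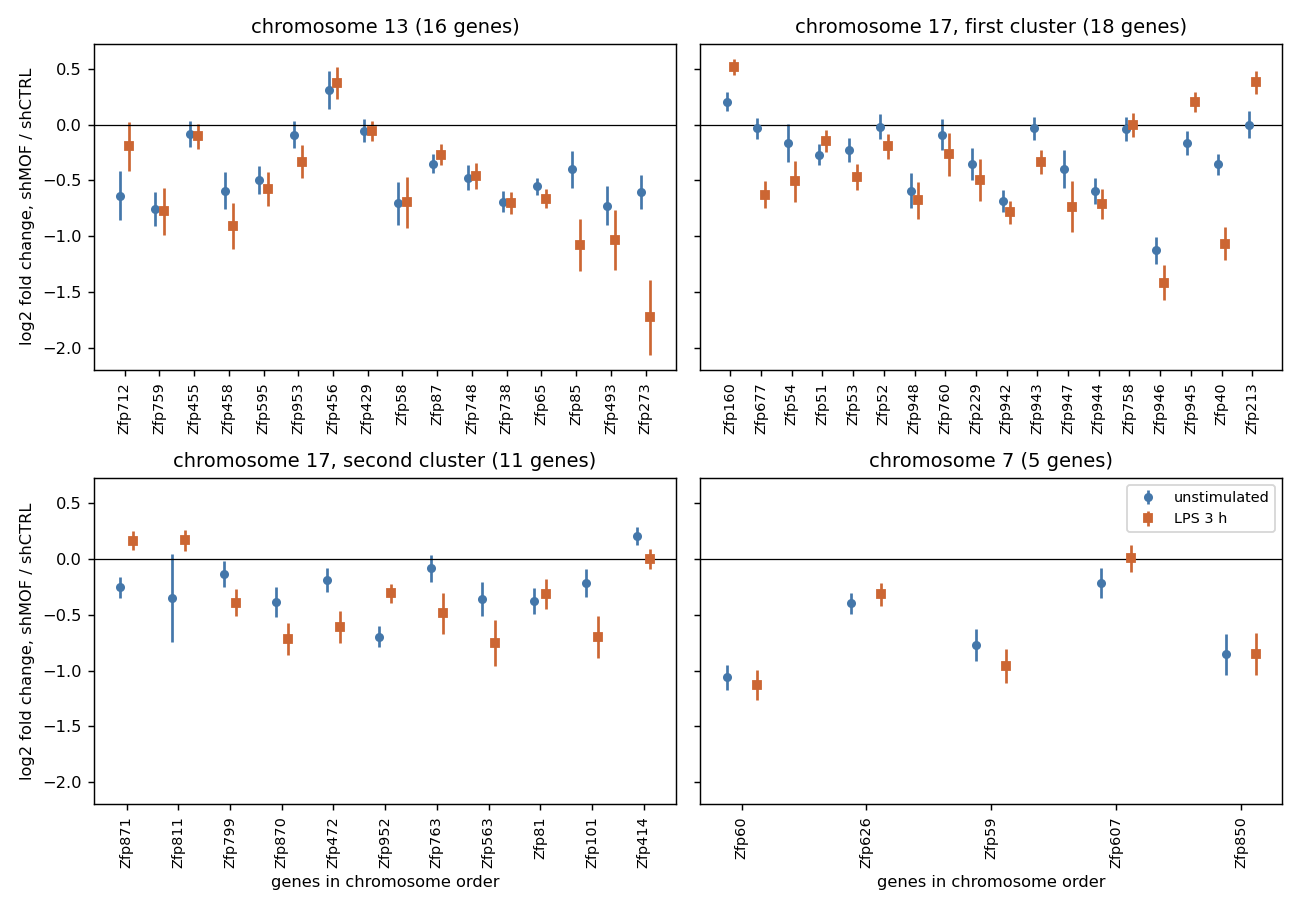
Points give the log2 fold change (shMOF over shCTRL) of each Zfp gene in 4 clusters, in the order of the genes along the chromosome, unstimulated (circles) and after 3 h of LPS (squares), with bars of 1 SE. In the chromosome 13 cluster 15 of 16 circles lie below 0 and Zfp456 lies above it, and in the chromosome 7 cluster Zfp607 is nearest 0 after LPS.

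The difference between the states was tested per gene as the LPS fold change minus the unstimulated one. It passed for 65 of the 251 Zfp genes, 23 higher and 42 lower after LPS, with a median of -0.12. That is 25.9% (9.16% higher, 16.7% lower), against 30.6% of all 12994 genes tested (18.2% higher, 12.4% lower) and 35.4% of genes with a mean of at least 50 (21.1% higher, 14.3% lower). Zfp382, a KRAB gene on chromosome 7, differed by 1.26 (SE 0.14, adjusted p 2.6e-17), from -0.69 (SE 0.11) without LPS to 0.57 (SE 0.09) after it in the authors' deposited table. Zfp800 differed by 0.85 (SE 0.14), from -0.30 to 0.55, Zfp263 by 0.46 (SE 0.07), from -0.22 to 0.25, and Zfp207 by 0.26 (SE 0.05), from -0.17 to 0.09, all in the authors' deposited table. These 4 are the genes that fell without LPS and rose after it.

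The reverse change, from a rise to a fall, was made by Zfp395, Zfp467, Zfp579, Zfp523, Zfp688 and Zfp362, all of which passed the test of the difference. Zfp395 went from 0.39 (SE 0.08) to -0.53 (SE 0.18) and Zfp579 from 0.33 (SE 0.13) to -0.48 (SE 0.15) per the authors' deposited table. Zfp398 and Zfp661, which passed without LPS in neither direction, went to -0.87 (SE 0.15) and -0.88 (SE 0.23) per the authors' deposited table. Zfp367 went the other way, from -0.82 to -0.01, a difference of 0.81 (SE 0.16, adjusted p 8.74e-06).

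**Figure D5:**
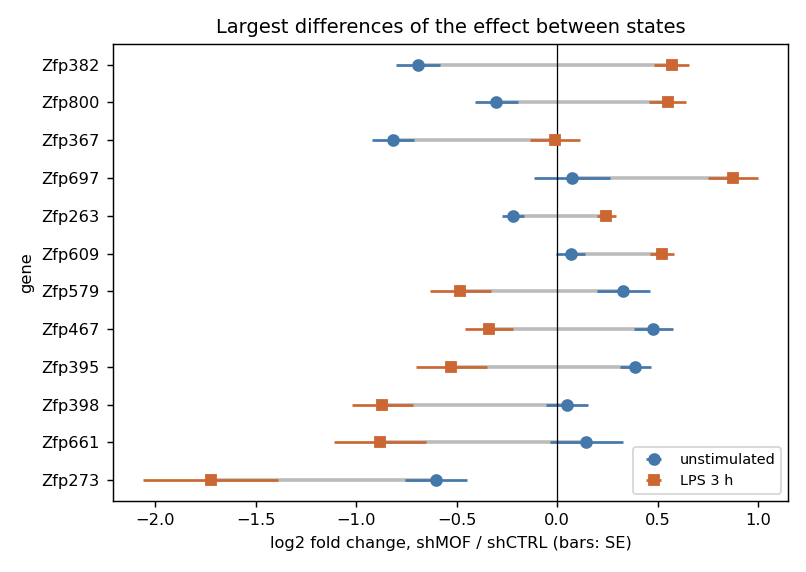
For the 6 Zfp genes with the largest differences between the states in each direction, points give the log2 fold change (shMOF over shCTRL) unstimulated and after 3 h of LPS, with bars of 1 SE. Zfp382 goes from -0.69 to 0.57, and Zfp395, Zfp467 and Zfp579 go from above 0 to below it.

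By known role, the Zfp genes with named functions moved in both directions. Among all genes with a mean of at least 50, 48.4% passed without LPS and 57.8% after it. Of 8 KRAB genes known for guarding imprints or silencing retroelements, 5 met the minimum. Of these Zfp568, which silences a placental Igf2 transcript, fell without LPS at -0.48 (SE 0.12, adjusted p 0.000186), and Zfp932 fell after LPS at -0.64 (SE 0.14, adjusted p 2.27e-05) per the authors' deposited table. Zfp445, a keeper of imprinted methylation, had -0.06 (SE 0.08) and 0.01 (SE 0.07), and Zfp809, which binds the primer site of murine leukemia viruses, 0.22 (SE 0.09) and -0.04 (SE 0.10) per the authors' deposited table. Neither passed in either state, nor did Zfp961.

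Of 10 promoter-binding factors of the minimum, 3 rose and 1 fell without LPS (40% passing), and 3 rose and 2 fell after it (50% passing). The shares passing over all genes with a mean of at least 50 were 48.4% and 57.8%. Besides Zfp281, Zfp263 and Zfp467, Zfp219 rose in both states, with 0.37 (SE 0.06) and 0.25 (SE 0.07) per the authors' deposited table. Zfp410, known to act on the NuRD subunit gene Chd4, fell after LPS at -0.18 (SE 0.07, adjusted p 0.0209), while Chd4 itself rose there, at 0.47 (SE 0.04) per the authors' deposited table. Of 9 partners of chromatin complexes, 2 rose and 3 fell, then 3 rose and 2 fell (55.6% passing in each state). Zfp217, a partner of the CoREST complex, rose at 0.31 (SE 0.08) and 0.35 (SE 0.07), and Zfp687 fell at -0.35 (SE 0.08) and -0.38 (SE 0.08) per the authors' deposited table.

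Of 10 that act on RNA, ribosomes or ubiquitin, 2 rose and 2 fell, then 4 rose and 1 fell. That is 40% and 50% passing, against 48.4% and 57.8% of genes with a mean of at least 50. Zfp106, an RNA-binding protein needed by motor neurons, had -0.34 (SE 0.06) and -0.31 (SE 0.05) per the authors' deposited table. Zfp346, which binds double-stranded RNA, had 0.35 (SE 0.09) and 0.39 (SE 0.08) per the authors' deposited table. Zfp598, the ubiquitin ligase that senses collided ribosomes, had 0.12 (SE 0.07) without LPS and rose after it, at 0.33 (SE 0.06, adjusted p 2.15e-07) per the authors' deposited table. Of 3 spindle and genome stability genes, Zfp207 and Zfp451 fell without LPS, and Zfp207 rose after it.

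The partners through which KRAB proteins act are set beside the same background, 26.5% rising and 21.9% falling without LPS and 33.8% and 24.1% after it among genes with a mean of at least 50. Of 26 genes of that machinery, 6 rose and 9 fell without LPS (23.1% and 34.6%) and 8 rose and 8 fell after it (30.8% each), with medians of -0.08 and -0.02 in the authors' deposited table. Trim28, the co-repressor bound by the KRAB box, had -0.12 (SE 0.06, adjusted p 0.128) and -0.14 (SE 0.06, adjusted p 0.0345) per the authors' deposited table. Setdb1 rose without LPS at 0.16 (SE 0.06) and fell after it at -0.29 (SE 0.07) per the authors' deposited table. Cbx5, a heterochromatin protein, and Uhrf1, which maintains DNA methylation, had -1.74 (SE 0.09) and -1.91 (SE 0.13) without LPS in the authors' deposited table, beside the fall of the whole proliferation list given above. Whether that fall has a part in theirs was not tested.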

How the data were processed

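RNA from 12 libraries was sequenced with a stranded mRNA kit as paired ends with reads of 100 bp, per the labels' protocols. DESeq2 and the mm10 build are named in the submitters' processing notes. The mapping tool, the counting tool, its annotation and its strand setting were not given in the sources used here. Deposited by the authors were 2 tables of shMOF against shCTRL, 1 unstimulated and 1 after LPS, each with 14264 genes. Per the file headers they hold a mean normalized count over libraries, a signal that was the same in both tables, a log2 fold change with its SE, a Wald statistic, which is a score, and a p-value with its adjusted p-value. After LPS 277 genes carry no deposited adjusted p-value and were not counted as tested. Values per library were not analysed here, so depth per library is unknown, no sample could be left out, and precision is given by the deposited SE.

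Calls use the authors' adjusted p-value at 0.05. The difference between the states was the LPS log2 fold change minus the unstimulated one, with both SEs combined as independent, a normal p and a Benjamini-Hochberg adjustment over 12994 genes with a mean of at least 10. This step was tested on simulated data drawn with independent errors, as the step assumes, so that run cannot show what correlated errors would do. Named are Kat8, the 10 largest rises and falls in each state, the 6 largest differences each way and members of fixed role lists. Other genes of the clusters, and those that crossed direction, were named after their values were seen. The members and lists were chosen with earlier results of these data known.

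Gene positions come from GENCODE M21, and all 251 genes matched by Ensembl identifier. A KRAB box was called with pyhmmer 0.12.3 from a profile of 82 seed sequences at an E-value of at most 0.0001 on 248 translated coding sequences. That split, the share of 100-base stretches found in another gene, and the search for 13 motifs in RefSeq promoter windows were chosen after seeing the data. C2H2 fingers were counted as matches of a fixed spacing pattern in the longest translated sequence, so fingers of other spacing may be missed. Python 3.11.15, pandas 2.3.3, scipy 1.17.1 and matplotlib 3.10.9 were used. Alternatives were the threshold, a null of 0.25, the filters, centring, weighting and a correlation of 0.3 between errors.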

Additional observations from a re-analysis of the deposited data

Results flagged for a closer look

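The knockdown effect differed between the states, by the test of the difference, for 65 of the 251 Zfp genes (25.9%, against 35.4% of all genes with a mean of at least 50). Those among the named genes follow, of which 12 were named for their difference. The differences given here are the LPS log2 fold change minus the unstimulated one, from the authors' deposited table. Among the named genes it was higher after LPS for Zfp382 (1.26), Zfp800 (0.85), Zfp367 (0.81), Zfp697 (0.80), Zfp263 (0.46), Zfp609 (0.45), Zfp281 (0.42), Zfp952 (0.39) and Zfp160 (0.31). It was lower for Zfp273 (-1.12), Zfp661 (-1.03), Zfp395 (-0.92), Zfp398 (-0.92), Zfp467 (-0.82), Zfp579 (-0.81), Zfp41 (-0.79), Zfp40 (-0.71), Zfp784 (-0.61), Zfp821 (-0.53), Zfp120 (-0.49) and Zfp740 (-0.28). Of these Zfp740, Zfp281 and Zfp160 rose, and Zfp120, Zfp273, Zfp40 and Zfp952 fell, in both states.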

How the results depend on the processing

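No paired analysis was possible because the deposited tables hold no value per library, and leaving out each replicate in turn could not be run for the same reason. Of 84 alternative values for the counts and medians, 70 stayed within the set limits, 14 moved beyond them and none changed direction. Without LPS, a threshold of 0.01 left 20 rising, a null of 0.25 left 22 passing (2 rising, 20 falling), and a minimum mean of 200 left 39 falling. After LPS, the null of 0.25 left 50 passing (10 rising, 40 falling), and the minimum of 200 left 87 passing, 56 of them falling. The LPS average weighted by the inverse squared SE was -0.057. For the difference between states, a correlation of 0.3 between errors gave 35 higher, and a threshold of 0.01 gave 43 in all, 13 higher. The cause was not tested beyond the smaller number of genes that each minimum leaves. Of 260 values for single named genes, 247 kept their side of the threshold and 13 did not, with no change of sign.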
